A study of Arabidopsis thaliana with 4 samples.

Results

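The expansin genes EXPA20, EXPA21, EXPA24 and EXPB5 were compared between inflorescences of the Arabidopsis thaliana mutant agamous and wild-type inflorescences. They were chosen by symbol, from probes assigned to 1 gene only, and they are 4 of 5443 loci with a probe of their own on the array. The ratios described here were known when they were chosen, so that their values are given as a description with no test. The study hybridised total RNA of both inflorescences to each of 4 2-colour arrays of long oligonucleotides, and each array gives 1 log2 ratio per probe. Per the labels, channel 1 held the agamous RNA of arrays 1 and 3, and channel 2 held that of arrays 2 and 4. The allele, the accession of the plants, the stage of the flowers and the number of plants per RNA sample are not given in the sources used here. Whether the 4 sets are separate plants is not stated either, and the spread behind each p-value may be technical.

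Expansins are proteins of the plant cell wall that loosen the contacts between cellulose microfibrils and the glycans around them, without cutting either, and so let the wall extend under turgor. The family has alpha-expansins (EXPA), beta-expansins (EXPB) and the expansin-like groups EXLA and EXLB. Beta-expansins of grass pollen are known as allergens and loosen the walls of the stigma and style. AGAMOUS is the MADS-domain factor that specifies stamens and carpels, and agamous flowers bear petals and sepals in their place. A ratio from whole inflorescences cannot tell fewer cells of a type from less RNA per cell.

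The direction of the ratios is not settled. Arrays 1 and 4 ran opposite to arrays 2 and 3, although per the labels array 1 shares its channel order with array 3, and array 2 with array 4. Across probes, with values at the table's bounds left out, Pearson's r was -0.66 for array 1 with array 3, -0.71 for array 2 with array 4 and 0.70 for array 1 with array 4. Over all values it was weaker, -0.08, -0.45 and 0.60 for these pairs, and Spearman's rho was -0.38, -0.51 and 0.56. The ratios are therefore given as deposited, turned by the channel labels (arrays 2 and 4 with opposite sign) and with arrays 2 and 3 turned, a reading chosen with the values known. A negative ratio in the last reading was read as a lower level in agamous, on the basis of floral markers. In it, 10 of 10 measured floral markers were below 0 on all 4 arrays, beside 16.5% of all features. The markers, like this reading, were chosen with earlier results of these data known, so that their count is no independent test of the direction. Of these 10, 8 passed limma's test, and SPL (adjusted p = 0.170) and TUA1 (adjusted p = 0.0562) did not. Of 39 markers of stamens, pollen, carpels, nectaries and floral identity, these 10 were measured, from SPL at a mean of -0.22 to CES at -4.99, and 0 of the 10 floral identity genes had a probe of its own. With the overall sign turned, each lower level below becomes a higher one.

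EXPA24 (AT5G39310), an alpha-expansin, had the largest ratios of the 4 genes. The deposited log2 ratios of its single probe were -3.59, 4.48, 5.55 and -4.09 for arrays 1 to 4 in order. Arrays 1 and 4 were low and arrays 2 and 3 high, and none of these values lay at the bounds of the table. With arrays 2 and 3 turned, the mean was -4.43 ± 0.83 (SD, n = 4), a 21.5-fold difference, with folds from 12.0 on array 1 to 46.8 on array 3. Of 26100 features with at least 3 values, 100 had a lower mean. On the single arrays EXPA24 lay at percentile 0.979, 0.865, 1.51 and 0.637 of the turned ratios of arrays 1 to 4.

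EXPB5 (AT3G60570), the only beta-expansin measured singly, had deposited log2 ratios of -2.35, 3.56, 2.24 and -1.66 for arrays 1 to 4. Its signs followed those of EXPA24 on all 4 arrays. The turned mean was -2.45 ± 0.80 (SD, n = 4), a 5.48-fold difference. The smallest fold was 3.17, on array 4, and the largest 11.8, on array 2. A lower mean was found for 714 features.

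EXPA21 (AT5G39260), an alpha-expansin, had smaller deposited ratios of the same signs, -0.64, 1.32, 0.63 and -0.60 for arrays 1 to 4. Arrays 1, 3 and 4 were close in size, and array 2 stood apart. The turned mean was -0.80 ± 0.35 (SD, n = 4), a 1.74-fold difference, and it was -0.62 without array 2. The mean lay at percentile 10.1 of all features.

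EXPA20 (AT4G38210), the remaining alpha-expansin, ran the other way. Its deposited ratios were 0.92, -0.99, -0.64 and 0.53 for arrays 1 to 4. In the reading in which the other 3 genes had negative ratios, EXPA20 had positive ones, with a turned mean of 0.77 ± 0.22 (SD, n = 4), a 1.71-fold difference. Its mean lay at percentile 91.0 of all features. Features that the table names as empty had turned means with a median of 1.83, and 263 of 352 were at least as high as EXPA20. Only 42 of these also had 1 sign on all 4 arrays, as EXPA20 had. In all, 62 of the 352 were above 0 on all arrays and 4 below. At or beyond the means of the other genes in their direction lay 0 empty features for EXPA24, 1 for EXPB5 and 6 for EXPA21. With 1 sign on all 4 arrays required, these counts were 0, 1 and 4. Whether background has a part in the ratio of EXPA20 was not tested.

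**Figure D1:**
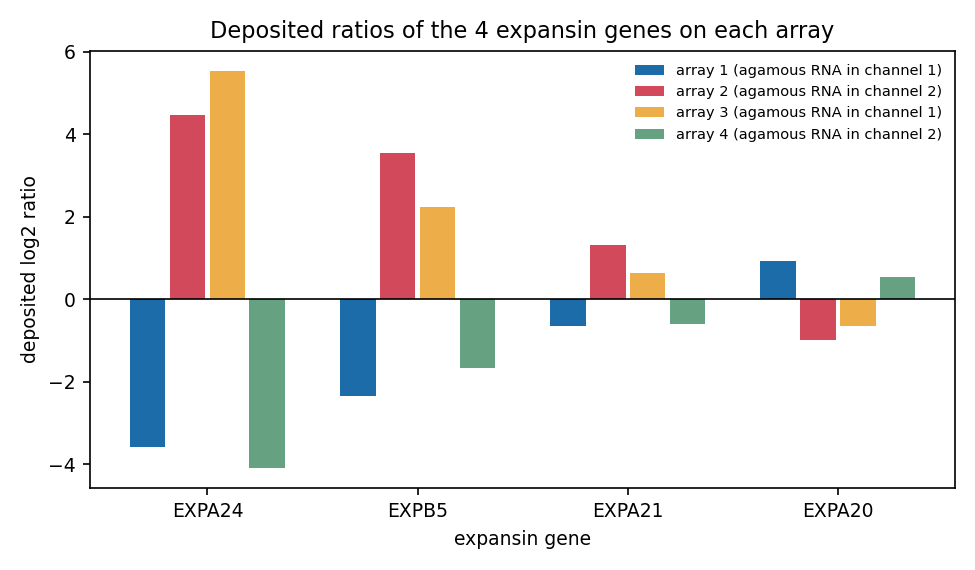
Deposited log2 ratios (vertical axis) of the 4 expansin genes on each of the 4 arrays (bars, coloured by array, with the channel of agamous RNA per the labels). Arrays 1 and 4 are below 0 and arrays 2 and 3 above 0 for EXPA24, EXPB5 and EXPA21, and EXPA20 has the opposite signs.

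The 4 genes kept 1 order on the scale of turned ratios. EXPA24 was lowest, followed by EXPB5, EXPA21 and EXPA20, and the ranges over arrays did not overlap for any pair. The closest values were those of EXPA24 on array 1 (-3.59) and EXPB5 on array 2 (-3.56). Within an array, EXPA24 minus EXPB5 ran from -3.31 to -0.92, with a mean of -1.97 ± 1.10 (SD, n = 4). EXPA21 was above EXPB5 by 1.66 ± 0.48 and EXPA20 above EXPA21 by 1.57 ± 0.53 (SD, n = 4 each). The order was fixed by the ratios with which the genes were chosen and carries no test.

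Averaged by pair, sizes were larger on arrays 2 and 3 than on arrays 1 and 4 for 4 of 4 genes. Singly, array 2 exceeded both arrays 1 and 4 for each gene, whereas the sizes of EXPB5, EXPA21 and EXPA20 on array 3 were below those on array 1. The mean deposited ratio of EXPA24 was -3.84 on arrays 1 and 4 and 5.02 on arrays 2 and 3. For EXPB5 these means were -2.01 and 2.90, for EXPA21 -0.62 and 0.97, and for EXPA20 0.73 and -0.82. Among all features below 0 on the 4 turned arrays, 56.9% were larger on arrays 2 and 3, against 45.5% of those above 0. The unequal sizes left means of 0.59 for EXPA24, 0.45 for EXPB5, 0.18 for EXPA21 and -0.04 for EXPA20 in the ratios as deposited.

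In the other readings the arrays cancelled. As deposited, the SDs over arrays were 5.13 for EXPA24, 2.90 for EXPB5, 0.96 for EXPA21 and 0.92 for EXPA20, each larger than the size of its mean. Turned by the channel labels, the means were 0.39 for EXPA24, -0.50 for EXPB5, -0.18 for EXPA21 and 0.19 for EXPA20, again with SDs larger than the means. The same sign on all 4 arrays was found for 0 of 4 genes as deposited, against 8.67% of all features with 4 values, and for 0 of 4 turned by the labels, against 4.94%. With arrays 2 and 3 turned it was found for 4 of 4, of which 3 were below 0 and 1 above, against 47.5% of all features (16.5% below and 31.0% above). As the genes were chosen with this reading known, nothing is read from that count.

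**Figure D2:**
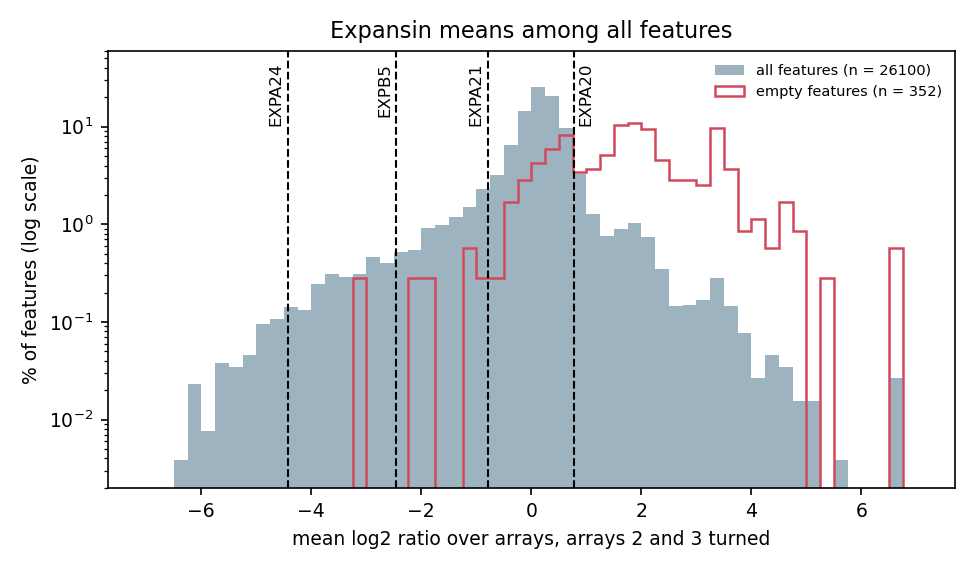
Distribution of mean log2 ratios with arrays 2 and 3 turned (horizontal axis) as a percentage of features on a log scale (vertical axis), for 26100 features (filled) and 352 empty features (red outline). Dashed lines mark the means of EXPA24 (-4.43), EXPB5 (-2.45), EXPA21 (-0.80) and EXPA20 (0.77), and the empty features lie mostly above 0 with a median of 1.83.

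The median over the 4 genes was -1.62 with arrays 2 and 3 turned, beside 0.15 over all features and 0.18 over loci with a probe of their own. Centring each array on its median moved the median of all features from 0.15 to 0.02 and the means to -4.56 for EXPA24, -2.59 for EXPB5, -0.93 for EXPA21 and 0.64 for EXPA20. The sign of each gene was thus kept relative to the median of all features.

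The 4 genes are a small share of the family. The reference table names 38 expansin and expansin-like genes by symbol or synonym. PNP-A and AT4G30380 are among them by synonym alone and had no listed probe. Of the 38, 5 had a probe of their own, 12 were listed only for probes shared with other genes and 21 had no listed probe. EXLB1 (AT4G17030), the fifth gene measured singly and an expansin-like protein, had deposited ratios of -0.11, -0.74, -0.65 and 0.29 for arrays 1 to 4. Array 1 thus had the sign of arrays 2 and 3 and not that of array 4. EXLB1 had a turned mean of 0.39 ± 0.39 (SD, n = 4) and did not pass limma's test (adjusted p = 0.189). It did not pass as deposited or turned by the labels either (adjusted p = 1.0 in both, limma).

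The 10 shared probes each list 2 to 4 genes, at least 2 of them expansins, so that a value belongs to no gene alone. With arrays 2 and 3 turned, their means ran from -1.95 to 1.05, with 4 below 0 and 6 above. Limma called 1 lower and 3 higher at an adjusted p under 0.05, beside 9.16% of all features lower and 8.23% higher. The lower call was probe A018367_01, listed for 4 expansin genes with EXPA21 and EXPA24 among them. Its deposited ratios of -2.60, 2.66, 1.23 and -1.30 on arrays 1 to 4 had the signs of both genes, and its turned mean of -1.95 ± 0.79 (SD, n = 4, adjusted p = 0.0261, limma) lay between theirs. The higher calls were A019752_01 at 1.03 ± 0.38 and A020837_01 at 1.05 ± 0.54, which list the same pair of beta-expansins, and A003335_01 at 0.68 ± 0.32 (SD, n = 4 each, adjusted p = 0.0265, 0.0462 and 0.0486, limma). These 4 calls depended on the full set of arrays, and 0, 0, 1 and 0 shared probes passed without arrays 1, 2, 3 and 4 in turn. Probe A024544_01, listed for EXPA20 and a second alpha-expansin, had 0.30 ± 0.22 (SD, n = 4, adjusted p = 0.159, limma).

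**Figure D3:**
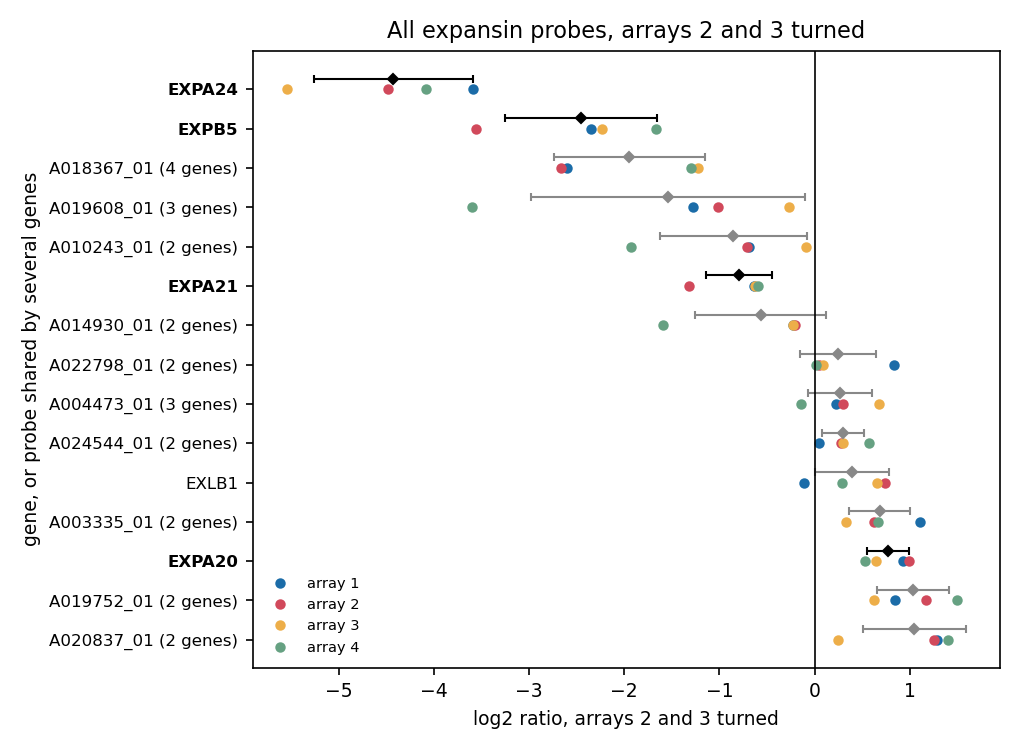
Log2 ratios with arrays 2 and 3 turned (horizontal axis) for the 15 expansin probes, with 1 point per array and, just above, the mean with its SD over 4 arrays (diamonds, black for the 4 genes in bold). Probes named by identifier are shared by the number of genes given, and the means run from -4.43 for EXPA24 to 1.05 for A020837_01.

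EXPA21 and EXPA24 lie in 1 tandem group on chromosome 5. In the reference table the 4 genes between them are all expansins, EXPA22, EXPA23, EXP26 and EXPA25, and none of these had a probe of its own. EXPA20 on chromosome 4 and EXPB5 on chromosome 3 have no other expansin among the 5 genes on either side. Relatives in the tandem group may share signal with the probes of EXPA21 and EXPA24, and this was not tested. Despite lying in the same group, EXPA21 and EXPA24 differed by 3.63 ± 0.89 (SD, n = 4) in turned ratio, with 2.95 on array 1 and 4.92 on array 3 as the extremes.

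Of the loci within 5 genes of a member, 6 that are not members had a probe of their own, and 1 passed limma's test with arrays 2 and 3 turned, beside 17.4% of all features. This was AT5G39350, 4 genes from EXPA24, with a mean of -0.53 ± 0.09 (SD, n = 4, adjusted p = 0.0302). Its call ended when any array was left out (adjusted p up to 0.131). AT5G39250, next to EXPA21, had -0.09 ± 0.20 (adjusted p = 0.607). Near EXPA20, AQI (AT4G38220) had 0.49 ± 0.27 (adjusted p = 0.0789) and AT4G38225 0.19 ± 0.45 (adjusted p = 0.526), and near EXPB5, AT3G60560 had 0.21 ± 0.35 (adjusted p = 0.406) and AT3G60590 -0.01 ± 0.29 (adjusted p = 0.960).

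Other cell wall genes were taken from a list of families, of which 4 had genes measured singly. These were the xyloglucan endotransglucosylases (XTH), which cut and rejoin xyloglucan chains, the GH9 endoglucanases, the glycan synthases CSLA and CSLC and the TBL proteins, a family of wall polysaccharide acetyltransferases. With arrays 2 and 3 turned, 7 of 20 passed limma's test, 6 of them lower and 1 higher, beside 17.4% of all features (9.16% lower and 8.23% higher). Their median was -0.13, beside 0.15 over all features. As deposited, 0 of 20 passed, beside 0.226% of all features, and turned by the labels 0 of 20 passed, beside 0.0% of all features.

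The lower calls were GH9A4, GH9B11, XTH33, XTH19, TBL41 and TBL20. GH9A4 had deposited ratios of -2.91, 3.54, 3.97 and -3.34 on arrays 1 to 4 and a turned mean of -3.44 ± 0.44 (SD, n = 4, adjusted p = 0.00166, limma), a 10.9-fold difference. GH9B11 had -2.93, 3.13, 4.42 and -2.42 and a turned mean of -3.22 ± 0.85 (adjusted p = 0.00843, limma), a 9.35-fold difference, and lost its call without array 2 (adjusted p = 0.0633). These are the lowest means of the list past the test, and both were smaller in size than that of EXPA24. XTH33 and XTH19 had -2.30 ± 0.76 and -1.84 ± 0.33, and XTH33 lost its call without array 1 or array 2 (adjusted p up to 0.0881). TBL41 had -1.64 ± 0.10 and TBL20 -0.73 ± 0.17 (SD, n = 4 each). The call of TBL20 ended when any array was left out (adjusted p up to 0.0927), and that of TBL41 with arrays 1 and 2 averaged and arrays 3 and 4 averaged (adjusted p = 0.0505). CSLA01, a mannan synthase, was the only call in the direction of EXPA20, with 1.72 ± 0.47 (SD, n = 4, adjusted p = 0.0112, limma), and lost it without array 2 (adjusted p = 0.0601). Without array 2, 3 of the 20 genes passed.

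**Figure D4:**
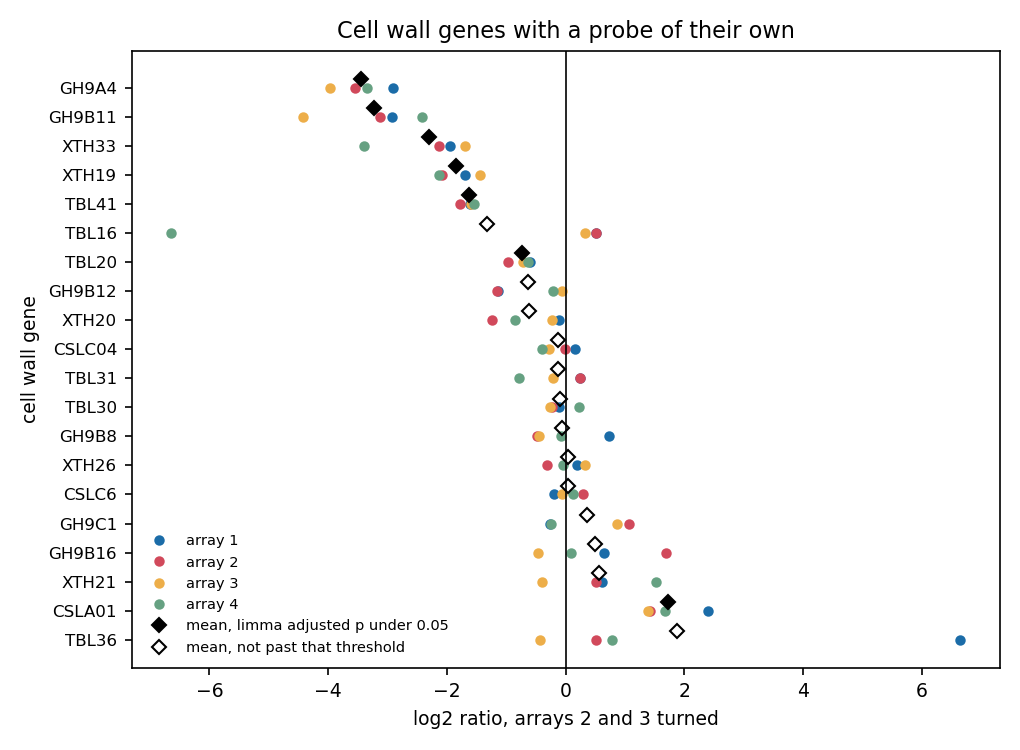
Log2 ratios with arrays 2 and 3 turned (horizontal axis) for the 20 cell wall genes with a probe of their own, 1 point per array, with the mean just above as a diamond that is filled where limma's adjusted p was under 0.05. GH9A4 (-3.44) and GH9B11 (-3.22) are lowest, and the means of TBL16 and TBL36 each rest on 1 value at a bound of the table.

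The genes most like each expansin were sought by Euclidean distance over the 4 deposited ratios, among 517 genes with a symbol, 4 values and none at the bounds. Nearest to EXPA24 were BGLU36 (distance 0.99, turned mean -4.30), RALFL25 (1.34, -3.97) and SWEET8 (1.63, -4.68). Nearest to EXPB5 were LTI30 (distance 1.31, turned mean -2.41), GH3.3 (1.40, -1.92) and ATA20 (1.41, -2.83). EXPA21 had TBL20 (distance 0.36, turned mean -0.73), UGT73B1 (0.48, -0.92) and TET13 (0.60, -0.99) as its nearest genes. For EXPA20 these were CYP71B26 (distance 0.24, turned mean 0.73), PDIL5-1 (0.27, 0.81) and XERICO (0.36, 0.67). Distances grow with the size of the ratios, so that they are not comparable between the 4 expansins.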

How the data were processed

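The authors deposited 1 log2 ratio of both channels per feature and array, normalized after a publication that the labels cite. The numerator, the centring and any turning of swapped arrays are not given in the sources used here. That the scale is log2 follows from the signed values, bounded at plus and minus 6.64 (100-fold). Array medians ran from -0.14 to 0.16. Of 26474 probes analysed, 5784 had 1 gene in the platform annotation. Symbols and gene order came from RefSeq's table of assembly TAIR10.1, and no coordinates are printed because no build is named for the probes. Probes of 1 gene were averaged, and the 4 expansins had 1 probe each. Empty (424) and control (35) features were not tested, and 0 columns were left unused. Features with values on at least 3 arrays were tested against 0, two-sided, across the whole table with limma 3.58.1 (R 4.3.3), and p-values were adjusted by Benjamini and Hochberg's method, with a threshold of 0.05. The number of arrays limits the precision. Members, lists and the turning of arrays 2 and 3 were chosen with earlier results of these data known, which the adjusted p-values leave out of account.

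Named by rule were the 4 expansins, the other expansin with a probe of its own, the 2 largest falls and rises past the test among cell wall genes, the 3 nearest genes of each expansin and measured loci within 5 genes. The remaining cell wall calls and the single shared probes were named after their values were seen. Pectin methylesterases, polygalacturonases, pectate lyases, beta-galactosidases and arabinogalactan proteins on the cell wall list had 0 genes measured singly under such a symbol.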

Additional observations from a re-analysis of the deposited data

Results flagged for a closer look

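EXPA21 had 1 array far from the others. With arrays 2 and 3 turned, its ratio was -1.32 on array 2 and between -0.64 and -0.60 on the other arrays, and the gap was 0.939 of the whole range, above Dixon's critical value for 4 arrays. The 4 genes were examined turned and as deposited, 8 sets in all, and chance flags about 1 set in 20. That rate does not hold for the deposited sets, where arrays 1 and 4 lie across 0 from arrays 2 and 3. There the gap was between 0.111 (EXPA24) and 0.351 (EXPA21) of the range. The flag describes the spread over arrays and is no test of the gene. EXPB5 and EXPA20 also had their largest size on array 2, and EXPA24 had it on array 3.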

How the results depend on the processing

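With arrays 2 and 3 turned, 10 alternatives were computed for the means of the 4 expansins. Bounds missing, median over probes and averaged pairs of arrays could not move these means. Each gene had 1 probe and 4 values, none at the bounds. Leaving out 1 array could not change a direction, as the 4 turned values of each gene shared 1 sign. Under centring, scaling and quantile normalization, which could have changed it, each mean kept its direction. Over all 10 alternatives the means ran from -4.71 to -4.05 for EXPA24, -2.72 to -2.08 for EXPB5, -0.93 to -0.62 for EXPA21 and 0.63 to 0.85 for EXPA20. In the other readings the mean of each expansin changed sign when 1 or 2 of the arrays were left out in turn, with EXPA24 from -1.06 to 2.15 as deposited. Over all features, 4539 passed with arrays 2 and 3 turned (2392 lower, 2147 higher), and 3557 after centring (2670 lower, 887 higher) and 3689 after centring and scaling (2691 lower, 998 higher). The count was 809 with arrays 1 and 2 and arrays 3 and 4 averaged, 1749 with the channel as a term, 1166 at an adjusted p under 0.01 and between 1050 and 1899 with 1 array left out. As deposited, limma called 59 features, and 14 after centring and scaling, 0 with values at the bounds missing (388 at an unadjusted p under 0.05), 20 with values required on all arrays, 17 with the channel as a term and between 18 and 224 with 1 array left out (224 without array 2). Turned by the labels, limma called 0 (191 at an unadjusted p under 0.05), and 44 without array 4. Of the 20 cell wall genes, 7 passed, and 3 with averaged pairs of arrays and 3 without array 2, the lowest count with 1 array left out, the highest of which was 6. Of the 10 shared expansin probes, 4 passed, 2 after centring, 2 after centring and scaling, 0 with averaged pairs and between 0 and 1 with 1 array left out. With averaged pairs the calls of CSLA01 (adjusted p = 0.0688), XTH33 (0.0598), TBL41 (0.0505) and TBL20 (0.123) ended. The alternatives for cell wall genes, shared probes and EXLB1 were chosen after seeing the data. The cause of these changes was not tested. Each array is 1 paired ratio of both RNAs, and the test set the mean of these ratios against 0. No further pairing between arrays was used in the main fit, as the arrays form 1 group.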
